A study of Mus musculus with 55 samples.

Results

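Fat cells store energy as triglyceride, and this account follows the 10 mouse genes of that synthesis named Gpam, Gpat3, Gpat4, Agpat2, Agpat3, Lpgat1, Lpin1, Dgat1, Dgat2 and Mogat1 through 3 fat depots. The genes were taken by name, as enzymes of triglyceride synthesis. Each was matched by its Ensembl ID to a GENCODE M21 symbol, and all 10 were found among the 31933 genes of each count table. Each of the 10 also passed the filter on low counts in every depot.

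The study gave male C57BL/6NRj mice, 10 weeks old, either corticosterone, the main glucocorticoid of mice, or placebo in the drinking water for 4 weeks. They were housed at 22 °C or at 13 °C. Areas cut by laser microdissection from 3 depots were sequenced: the brown fat between the shoulder blades (iBAT), white fat around the gonads (goWAT) and white fat under the skin (scWAT). Corticosterone at 22 °C is written GC_RT, placebo at 22 °C Ctrl_RT, corticosterone at 13 °C GC_CT and placebo at 13 °C Ctrl_CT. In that order iBAT had groups of 5, 3, 5 and 5 libraries, goWAT groups of 5, 4, 5 and 5, and scWAT groups of 5, 4, 4 and 5, which makes 55. No genotype other than the strain is given, so the groups differ by agent, temperature and depot. Neither the animal behind a library nor the way areas were picked for capture is given, so libraries of a group may share an animal, and p-values would then be too small.

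In the glycerol phosphate pathway, glycerol-3-phosphate acyltransferases add a first fatty acid to the glycerol backbone. Enzymes of the AGPAT family add the next one and make phosphatidate, which lipins dephosphorylate to diacylglycerol. Diacylglycerol acyltransferases then finish the triglyceride. A side route acylates monoacylglycerol directly, and phosphatidate and diacylglycerol can also leave the pathway for phospholipids. In white fat the product is stored in the lipid droplet, and in brown fat it is also a fuel reserve for heat production.

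Upstream sequence is shown for the pair of members, Lpin1 and Gpam, whose start-site windows held a sequence of the kind bound by nuclear receptors. Sequences are from RefSeq (GRCm38.p6), whose promoter table held 9 windows for 7 of the 10 members, each from 250 bases before a start site to 50 after it. In both lines, written 5′ to 3′ on the gene's strand, AGGTCA marks a nuclear receptor half-site, and in the Lpin1 line TGTTCT, the reverse complement of AGAACA, marks a glucocorticoid receptor half-site.
Lpin1, chr12:16610967-16611146, minus strand, bases -180 to -1 from the start site at 16610966: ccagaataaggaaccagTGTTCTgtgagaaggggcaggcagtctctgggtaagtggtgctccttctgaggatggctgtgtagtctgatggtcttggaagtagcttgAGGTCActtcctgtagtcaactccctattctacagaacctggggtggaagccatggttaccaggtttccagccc
Gpam, chr19:55099608-55099727, minus strand, bases -250 to -131 from an internal start site at 55099477: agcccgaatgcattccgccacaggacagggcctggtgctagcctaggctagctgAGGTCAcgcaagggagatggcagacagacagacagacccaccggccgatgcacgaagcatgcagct

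The Lpin1 stretch lies just before the first GENCODE M21 exon of Lpin1, within the longer RefSeq gene and outside its GENCODE exons. The Gpam stretch lies inside the Gpam gene, and its last bases overlap an exon of the antisense gene AC110206.1. Searched on both strands, AGAACA was in 1 of the 9 member windows, against 19.0% of all 32851 windows of the table, and AGGTCA in 2 of 9, against 16.3%. The full palindrome GNACANNNTGTNC was in 0 of 9 windows (0.475% of all), the E-box CACGTG in 0 of 9 (7.15%) and CCAAT in 2 of 9, those of Mogat1 and of the other Gpam start (37.4%). The motifs do not overlap one another in these windows. A match is only a description of letters, and binding was not measured here.

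Total counts of a library were 14043773 to 35790654 for iBAT, 12310822 to 53121372 for goWAT and 8622178 to 56450653 for scWAT. All 12 adipocyte markers (Adipoq, Plin1 and others) had counts in every library, and brown fat markers (Ucp1, Cidea and 8 others) summed to 6022 to 36448 CPM (counts scaled to library size) over the iBAT libraries. Some libraries stood apart. The 14 macrophage markers summed to 13580.0 and 9385 CPM in scWAT GC_RT replicates 2 and 3 and to 5637 CPM in iBAT GC_RT replicate 5. In goWAT, replicate 1 of GC_RT and replicate 1 of GC_CT had summed brown fat markers of 1773 and 2673 CPM, against 76.4 to 232 CPM in the other goWAT libraries. Epithelial markers were high in scWAT GC_CT replicates 3, 4 and 5 (79.4, 314 and 376 CPM) and in Ctrl_CT replicate 3 (98.1 CPM), and at most 2.62 CPM in the other scWAT libraries. Epididymal markers reached 1411 CPM in goWAT GC_RT replicate 5 and 3609 CPM in Ctrl_CT replicate 4, and muscle markers 2671 CPM in scWAT GC_RT replicate 2 and 1043 CPM in iBAT GC_CT replicate 4. Results that change without such libraries are given with and without them, as named sets. Where a set holds no library of a comparison, leaving it out changes only the filter, the scaling and the estimate of spread. The macrophage-rich libraries were scWAT GC_RT replicates 2 and 3, iBAT GC_RT replicate 5 and iBAT Ctrl_RT replicate 1. In iBAT Ctrl_RT the macrophage markers summed to at most 567 CPM. The brown-fat-rich and epithelium-rich libraries were those given above. The epididymis-rich ones were goWAT GC_RT replicate 5 and Ctrl_CT replicates 1 and 4. The muscle-rich ones were iBAT GC_CT replicate 4, Ctrl_CT replicate 4 and Ctrl_RT replicate 3, and goWAT GC_RT replicates 2 and 4 were the pair of goWAT libraries with the lowest totals.

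The members covered a wide range of abundance, with Agpat2 and Dgat2 far above the rest. Levels between genes are given per length, as RPKM (reads per kilobase of exon, scaled to library size). Agpat2, the lysophosphatidate acyltransferase whose loss causes lipodystrophy in people and mice, and Dgat2, a diacylglycerol acyltransferase, together made up 66.3% to 94.2% (median 85.8%) of the members' summed RPKM over the 55 libraries. In goWAT Ctrl_RT the mean was 1513 ± 236 RPKM for Dgat2 and 834 ± 125 RPKM for Agpat2 (SD, n = 4). Dgat1, the other diacylglycerol acyltransferase, averaged 112 ± 8.60 RPKM there (SD, n = 4). The remaining 7 genes ran from 15.8 RPKM for Lpgat1 to 86.8 RPKM for Gpat3.

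The order of mean RPKM in goWAT Ctrl_RT was Dgat2, Agpat2, Dgat1, Gpat3, Gpam, Mogat1, Gpat4, Lpin1, Agpat3 and Lpgat1. Neighbours whose library ranges overlapped were Dgat1 and Gpat3, the run of Gpam, Mogat1, Gpat4 and Lpin1, and Agpat3 and Lpgat1. In iBAT Ctrl_RT the order was Agpat2, Dgat2, Dgat1, Gpat4, Gpam, Agpat3, Lpin1, Mogat1, Gpat3 and Lpgat1, and the one step between neighbours without overlap was that from Dgat2 to Dgat1. In scWAT Ctrl_RT it was Agpat2, Dgat2, Dgat1, Gpat3, Gpam, Mogat1, Lpin1, Gpat4, Agpat3 and Lpgat1, with steps free of overlap from Dgat2 to Dgat1 and from Dgat1 to Gpat3. Over the 12 groups, the highest group mean was 24.1 times the lowest for Gpat3, 12.8 times for Lpgat1, 5.54 times for Agpat2 and 2.23 times for Dgat1, with the other 6 genes between 2.44 and 3.80 times.

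Spread between libraries of a group differed between members as well. The coefficient of variation of CPM had a median over the 12 groups of 44.3% for Agpat2 and 34.6% for Dgat2, the pair of abundant genes, and of 14.7% for Agpat3 and 15.9% for Dgat1. The remaining 6 genes had medians from 22.6% to 30.8%.

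**Figure D1:**
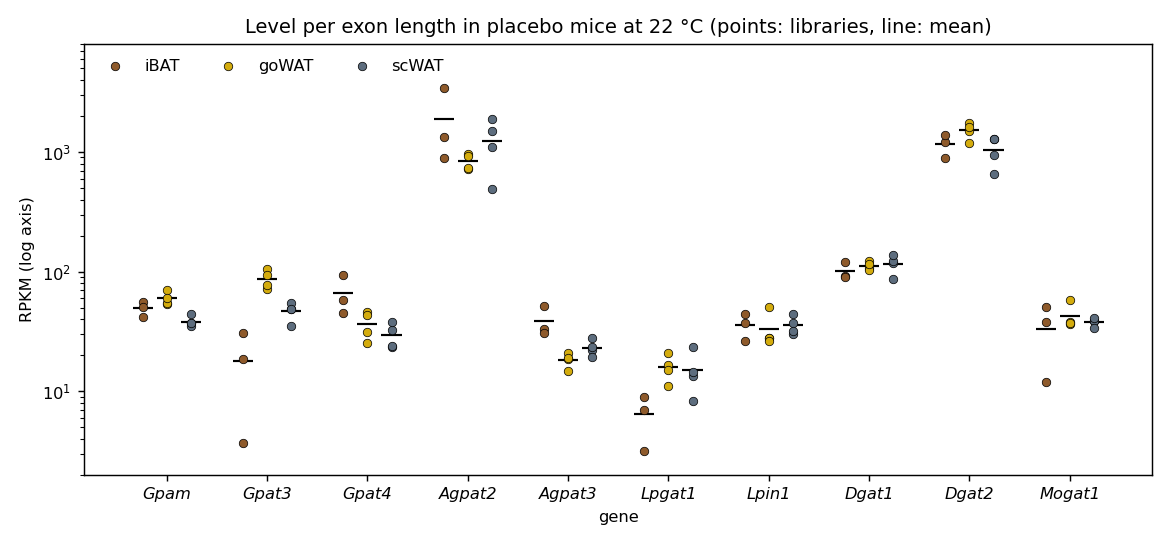
Level per exon length of the 10 genes in Ctrl_RT libraries, in RPKM on a log axis, with 1 point per library, a line at each mean and the depots in 3 colours. Agpat2 and Dgat2 lie above the other 8 genes in every depot, and Gpat3 and Lpgat1 are lower in iBAT than in goWAT on average.

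In placebo mice at 22 °C, 4 of the members were called between brown fat and a white depot. Of these, only Agpat3 and Lpgat1 were called against both white depots. Gpat3, a glycerol-3-phosphate acyltransferase of the endoplasmic reticulum, had 30.8, 18.7 and 3.66 RPKM in the iBAT libraries, against 71.6, 76.7, 105 and 94.3 RPKM in goWAT and 48.6, 35.0, 54.4 and 48.3 RPKM in scWAT. Every iBAT library lay below every library of both white depots. Its log2 fold change, iBAT over goWAT, was -2.29 ± 0.49 (SE, edgeR adjusted p = 0.000776). For iBAT over scWAT it was -1.39 ± 0.47 and was not called (edgeR, adjusted p = 0.0973). Without the macrophage-rich libraries, a check chosen after seeing the data, the adjusted p was 0.0232 (edgeR). That set leaves out iBAT replicate 1, which held the most Gpat3 of the iBAT libraries (30.8 RPKM). Lpgat1, an acyltransferase named for lysophosphatidylglycerol, had 7.03, 8.97 and 3.17 RPKM in iBAT, against 20.7, 16.4, 15.1 and 11 RPKM in goWAT and 13.4, 8.32, 23.4 and 14.6 RPKM in scWAT. It was lower in iBAT than in goWAT (-1.30 ± 0.36; edgeR, adjusted p = 0.00981) and than in scWAT (-1.22 ± 0.36; edgeR, adjusted p = 0.0489). Without the macrophage-rich libraries this last value was -1.30 and the call was lost (edgeR, adjusted p = 0.0695).

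A further pair of members was higher in iBAT. Agpat3, an acyltransferase that also acts on lysophospholipids, had 33.0, 30.4 and 51.8 RPKM in iBAT, against 20.8, 18.4, 14.7 and 18.8 RPKM in goWAT and 22.1, 23.6, 19.1 and 27.7 RPKM in scWAT, and iBAT overlapped neither. Its fold change was 1.08 ± 0.22 over goWAT (edgeR, adjusted p = 0.000300) and 0.73 ± 0.21 over scWAT (edgeR, adjusted p = 0.0484). Gpat4, another glycerol-3-phosphate acyltransferase of the endoplasmic reticulum, had 58.3, 44.9 and 94.3 RPKM in iBAT, against 23.4, 32.7, 23.7 and 37.5 RPKM in scWAT (1.17 ± 0.32; edgeR, adjusted p = 0.0307). Over goWAT, where it had 25.5, 31.3, 46.0 and 43.4 RPKM, the change was 0.85 ± 0.32 (edgeR, adjusted p = 0.0630). In all, 3 members were called of iBAT against goWAT, beside 14.7% of all 22245 genes tested, and 3 of iBAT against scWAT, beside 2.81%. Of goWAT against scWAT, 0 were called by edgeR (2 at an unadjusted p under 0.05), beside 4.33% of all genes. Members' median log2 fold changes were -0.21, 0.082 and 0.11 in these comparisons, beside -0.15, -0.076 and 0.047 over all genes.

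The iBAT Ctrl_RT group held 3 libraries, and the calls against scWAT were near the threshold: leaving out iBAT replicate 3, or scWAT replicate 1 or 3, ended each of the 3. Without single libraries the adjusted p ran up to 0.578 for Gpat4, 0.688 for Agpat3 and 0.591 for Lpgat1, and the Lpgat1 call against goWAT was lost without iBAT replicate 3 (edgeR, adjusted p = 0.140), whereas Gpat3 and Agpat3 against goWAT passed in all 7 such fits.

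**Figure D2:**
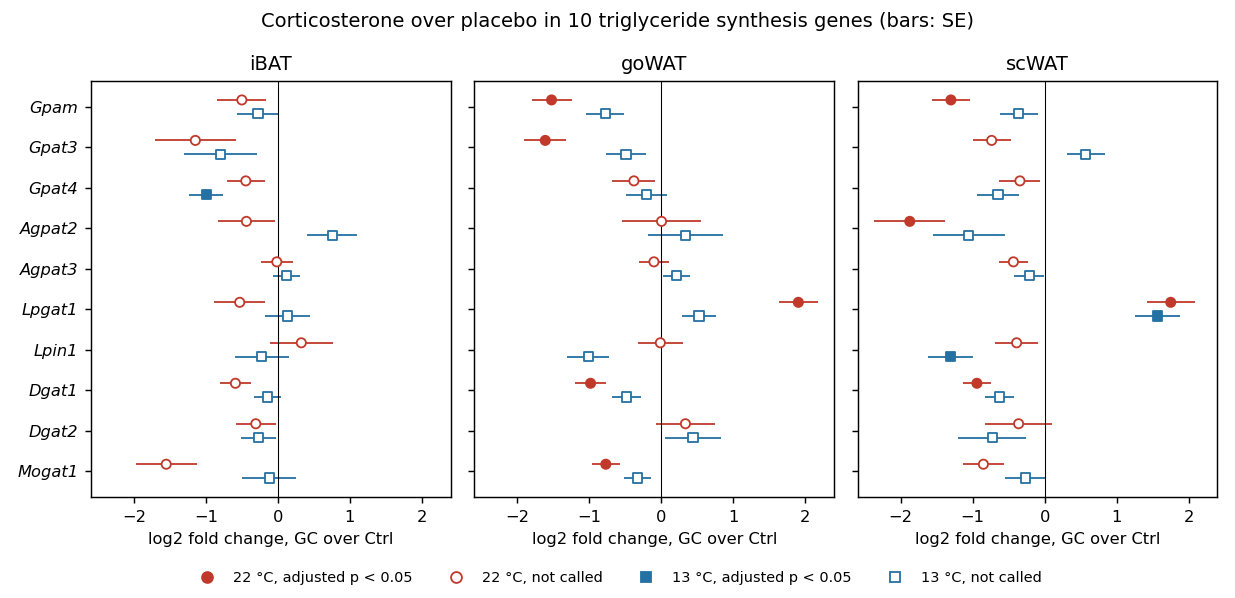
Log2 fold changes of GC over Ctrl for the 10 genes at 22 °C (circles) and 13 °C (squares) in iBAT, goWAT and scWAT, with bars of 1 SE and filled symbols where the adjusted p is under 0.05. Lpgat1 stands at 1.91 in goWAT and 1.75 in scWAT at 22 °C, while filled symbols of Gpam and Dgat1 stand below 0 in both at that temperature.

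At 22 °C several synthesis genes were lower with corticosterone in both white depots and 1, Lpgat1, was higher. In goWAT, Gpam, Gpat3, Dgat1 and Mogat1 fell and Lpgat1 rose. In scWAT, Gpam, Agpat2 and Dgat1 fell and Lpgat1 rose. Called were 5 of the 10 members in goWAT, beside 5.98% of 20175 genes (3.13% higher and 2.85% lower), and 4 of 10 in scWAT, beside 6.93% of 19003 genes (3.48% higher and 3.45% lower). Groups that did not overlap were found for the same 5 members in goWAT, beside 8.32% of all genes, and for Gpam, Dgat1 and Lpgat1 in scWAT, beside 8.49%. The members' median log2 fold change was -0.24 in goWAT and -0.59 in scWAT, beside 0.053 and 0.062 over all genes. In such bulk samples, fewer fat cells in a captured area and less RNA per fat cell cannot be told apart.

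Markers of cell types moved beside these members, and their part in the results was not tested. In scWAT the brown fat markers summed to 168 to 345 CPM in GC_RT and 728 to 3586 CPM in Ctrl_RT, and 7 of 10 were called lower. The macrophage markers summed to 848 to 13580.0 CPM in GC_RT and 664 to 1766 CPM in Ctrl_RT, with 2 of 14 called higher, and the adipocyte markers to 49594 to 81689 CPM in GC_RT and 90076 to 121958 CPM in Ctrl_RT, with 2 of 12 called lower. In goWAT the adipocyte markers summed to 62548 to 299405 CPM in GC_RT and 74382 to 112225 CPM in Ctrl_RT. The medians of these sums were 106518 CPM in GC_RT and 89296 CPM in Ctrl_RT, while 3 of 12 markers were called lower. There the macrophage markers summed to 1096 to 2551 CPM in GC_RT and 864 to 1174 CPM in Ctrl_RT, with 0 of 14 called, and the muscle markers to 67.9 to 373 CPM in GC_RT and 44.2 to 235 CPM in Ctrl_RT, with 3 of 6 tested called higher. The goWAT brown fat markers summed to 76.4 to 1773 CPM in GC_RT and 137 to 200.3 CPM in Ctrl_RT (medians 83.6 and 152 CPM), with 0 of 9 tested called. The lymphocyte markers were low and did not overlap between groups. They summed to 2.10 to 6.44 CPM in GC_RT and 7.31 to 16.0 CPM in Ctrl_RT in goWAT, with 1 of 10 called lower, and to 1.35 to 6.93 CPM in GC_RT and 7.92 to 18.9 CPM in Ctrl_RT in scWAT, with 2 of 10 called lower. Of 10 endothelial markers, 2 were called lower in each white depot. No macrophage or adipocyte marker was at 0 in any of these libraries.

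In brown fat, 0 members were called by edgeR with corticosterone at 22 °C, beside 0.664% of 17163 genes. At an unadjusted p under 0.05 there were 2, DESeq2 called 1 (Mogat1) and limma with library weights 3 (Gpam, Dgat1 and Mogat1). Their groups did not overlap for 1 member, Dgat1, beside 7.57% of all genes. The median log2 fold change was -0.47 (all genes 0.0054). The adipocyte markers in iBAT summed to 20094 to 31428 CPM in GC_RT and 30500 to 67082 CPM in Ctrl_RT (medians 26242 and 56426 CPM). Brown fat markers summed to 10323 to 18563 CPM in GC_RT and 6022 to 36448 CPM in Ctrl_RT (medians 12325 and 9744 CPM). Their part in the members' values was not tested.

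At 13 °C fewer members passed. In iBAT, Gpat4 fell (1 of 10, beside 0.728% of all genes). In scWAT, Lpgat1 rose and Lpin1 fell (2 of 10, beside 2.59%). In goWAT edgeR called 0 (beside 1.45%), with 4 at an unadjusted p under 0.05, 1 called by DESeq2 (Lpin1) and 2 by limma (Gpam and Lpin1). Median log2 fold changes of the members were -0.18, -0.49 and -0.27 in iBAT, scWAT and goWAT, beside 0.019, 0.0071 and 0.0054 over all genes. Groups that did not overlap were those of Gpat4 in iBAT (2.65% of all genes), of Gpat3, Lpgat1, Lpin1 and Dgat1 in scWAT (8.53%) and of 0 members in goWAT (4.79%). In scWAT the brown fat markers summed to 243 to 1031 CPM in GC_CT and 1295 to 4736 CPM in Ctrl_CT, with 4 of 10 called lower, and the epithelial markers to 0.146 to 376 CPM in GC_CT and 0.512 to 98.1 CPM in Ctrl_CT, with 0 of 8 called. In iBAT the muscle markers summed to 55.5 to 1043 CPM in GC_CT and 56.4 to 473 CPM in Ctrl_CT, with 0 of 10 called. Their part in the members' changes was not tested.

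Of the glycerol-3-phosphate acyltransferases, which start the pathway, Gpam (chromosome 19, bases 55067268 to 55127238, minus strand, GRCm38) encodes the enzyme of the mitochondrial outer membrane. In goWAT it had 237, 155, 118, 91.5 and 152 CPM in GC_RT, against 385, 398, 509.9 and 441 CPM in Ctrl_RT. Each GC library lay below each placebo library, and the log2 fold change was -1.52 ± 0.28 (SE; edgeR, adjusted p = 0.00203). In scWAT the values were 132, 78.6, 73.0, 143 and 148 CPM in GC_RT, against 274, 328, 260.3 and 272 CPM in Ctrl_RT, again without overlap. Its fold change there was -1.30 ± 0.26 (edgeR, adjusted p = 0.00411). Without the macrophage-rich scWAT GC_RT replicates 2 and 3, which held the lowest Gpam values, it was -1.01 (edgeR, adjusted p = 0.0442).

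At 13 °C Gpam in goWAT was not called by edgeR or DESeq2 and was called by limma. It had 385, 215, 163, 159.7 and 188 CPM in goWAT GC_CT, against 314, 499.8, 387, 355 and 351 CPM in Ctrl_CT (-0.78 ± 0.26; edgeR, adjusted p = 0.137). GC_CT replicate 1, rich in brown fat transcripts, was the one library that overlapped the placebo range. Leaving out the brown-fat-rich libraries, a set chosen with earlier results known, removes this library. The change was then -1.08 (edgeR, adjusted p = 0.00941), and the part of brown fat cells in the value was not tested. In scWAT it had 286, 233, 193 and 117 CPM in GC_CT, against 335, 263, 211, 298 and 223 CPM in Ctrl_CT, and the groups overlapped (-0.36 ± 0.26; edgeR, adjusted p = 0.577).

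In iBAT, Gpam had 149, 407, 114, 153 and 128 CPM in GC_RT, against 307, 274 and 226 CPM in Ctrl_RT. Apart from GC_RT replicate 2, each GC library lay below the placebo range, and the change was -0.50 ± 0.34 (edgeR, adjusted p = 0.641). At 13 °C the iBAT values were 206, 158, 288, 160.1 and 224 CPM in GC_CT, against 244, 230.2, 313, 271 and 194 CPM in Ctrl_CT, with overlap (-0.27 ± 0.30; edgeR, adjusted p = 0.827).

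Gpat3 (chromosome 5, bases 100845713 to 100899102, plus strand) fell in gonadal fat at 22 °C. It had 98.3, 143, 167, 62.8 and 70.8 CPM in goWAT GC_RT, against 269, 295, 399 and 362 CPM in Ctrl_RT, and the ranges were far apart (-1.61 ± 0.29; edgeR, adjusted p = 0.00193). In scWAT at 22 °C it had 186, 108, 59.5, 122 and 70.0 CPM in GC_RT, against 189, 137, 214 and 187 CPM in Ctrl_RT, with GC_RT replicate 1 inside the placebo range. That change did not pass (-0.74 ± 0.27; edgeR, adjusted p = 0.0979). At 13 °C in scWAT the sign was the opposite, with 136, 199.8, 164 and 161 CPM in GC_CT, against 110.0, 116, 114, 129.5 and 85.3 CPM in Ctrl_CT. All 4 GC libraries lay above the placebo range, yet the test did not pass (0.57 ± 0.27; edgeR, adjusted p = 0.302), and the difference between the GC effects at 13 °C and at 22 °C, 1.31 ± 0.37, did not pass either (edgeR, adjusted p = 0.261).

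For Gpat3 in goWAT at 13 °C the values were 146, 130.2, 155, 262 and 144 CPM in GC_CT, against 176, 242, 233, 182 and 343 CPM in Ctrl_CT (-0.49 ± 0.27; edgeR, adjusted p = 0.410). In iBAT the gene was low, from 4.48 to 88.7 CPM, and its placebo libraries at 22 °C (88.7, 53.3 and 10.4 CPM) spanned the whole range of GC_RT (17.5, 29.7, 18.9, 28.2 and 20.7 CPM). Its GC effects in iBAT were -1.15 ± 0.56 at 22 °C and -0.80 ± 0.50 at 13 °C (edgeR, adjusted p = 0.460 and 0.653).

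Gpat4 (chromosome 8, bases 23171265 to 23208346, minus strand) fell in brown fat at 13 °C. It had 205, 203, 244, 198 and 205 CPM in iBAT GC_CT, against 286, 456, 540.4, 461 and 358 CPM in Ctrl_CT. The GC libraries were tightly grouped and all lay below the placebo libraries (-0.99 ± 0.23; edgeR, adjusted p = 0.0477). The call was marginal: it was lost in 9 of 10 fits that left out a single library of the comparison, all but that without Ctrl_CT replicate 1, with values from -1.11 to -0.90 and adjusted p up to 0.135 (edgeR). Without the muscle-rich libraries it was -0.93 (edgeR, adjusted p = 0.139) and without the macrophage-rich ones -1.01 (edgeR, adjusted p = 0.0648). The macrophage-rich iBAT libraries are from 22 °C and outside this comparison, so that fit is no check on macrophages in it. At 22 °C iBAT had 268, 366, 222, 238 and 225 CPM in GC_RT, against 321, 244 and 513 CPM in Ctrl_RT, with overlap (-0.44 ± 0.26; edgeR, adjusted p = 0.579). In the white depots its GC effect ran from -0.65 in scWAT at 13 °C to -0.21 in goWAT at 13 °C, with 0 of 4 called.

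Within a library, the ratio of Gpam to the sum of Gpat3 and Gpat4 per kilobase needs no scaling between libraries. Its geometric mean was 0.881 in iBAT GC_CT and 0.554 in Ctrl_CT (exact two-sided permutation test, p = 0.0159), and 0.306 in scWAT GC_RT and 0.503 in Ctrl_RT (exact permutation p = 0.0238). Adjusted over the 24 ratio comparisons, 0 passed, with an adjusted p of 0.190 for both of these.

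**Figure D3:**
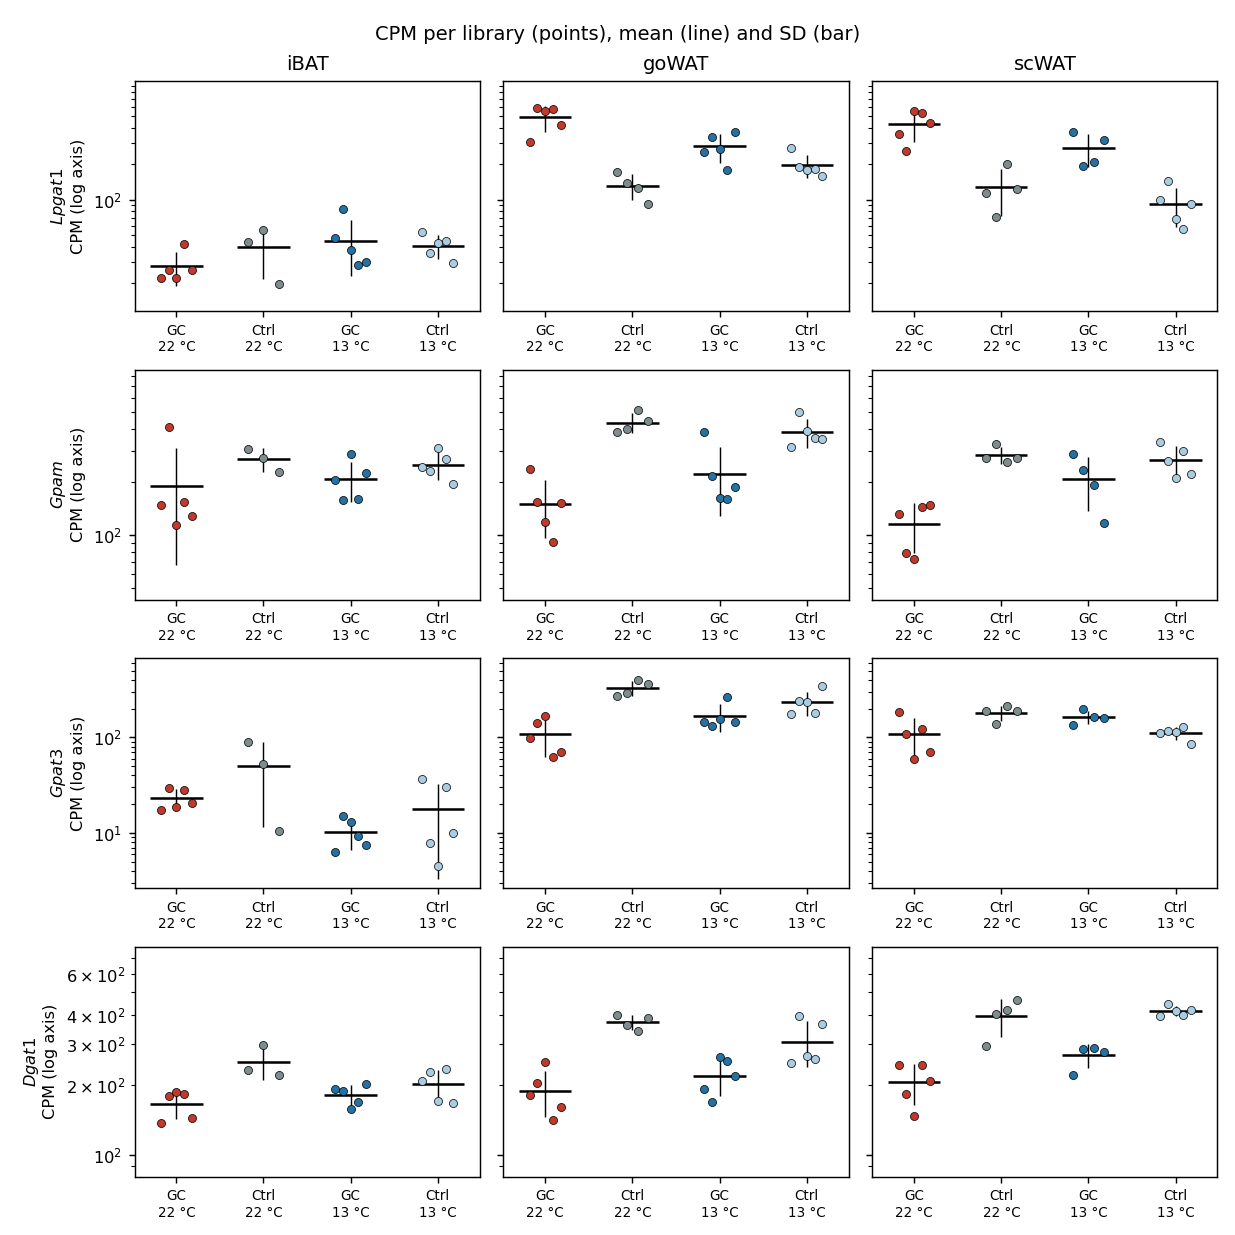
CPM per library on log axes for Lpgat1, Gpam, Gpat3 and Dgat1 in iBAT, goWAT and scWAT, with GC and Ctrl side by side at 22 °C and at 13 °C, a line at each group mean and a bar of 1 SD. In goWAT at 22 °C the GC and Ctrl libraries of all 4 genes are apart, with Lpgat1 higher in GC and the others lower.

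Among the acyltransferases that act after the first step, Lpgat1 (chromosome 1, bases 191717834 to 191784255, plus strand) was the one member that rose with corticosterone. In goWAT it had 303, 581, 556, 581 and 425 CPM in GC_RT, against 169, 137, 125 and 91.3 CPM in Ctrl_RT, means of 489 ± 123 and 131 ± 32.1 CPM (SD, n = 5 and 4). The lowest GC library was above the highest placebo library, and the log2 fold change of 1.91 ± 0.27 was the largest GC effect of any member in any depot (edgeR, adjusted p = 0.000229). In scWAT it had 353, 256, 553, 529 and 443 CPM in GC_RT, against 113, 70.8, 199.9 and 123 CPM in Ctrl_RT, also apart (1.75 ± 0.33; edgeR, adjusted p = 0.00254). Without the macrophage-rich libraries the scWAT value was 1.81 (edgeR, adjusted p = 0.00410), and without the brown-fat-rich libraries the goWAT value was 2.02 (edgeR, adjusted p = 0.000121).

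At 13 °C Lpgat1 was again higher in scWAT, with 371, 193, 209 and 314 CPM in GC_CT, against 98.9, 143, 68.5, 56.3 and 91.9 CPM in Ctrl_CT. The groups did not overlap (1.57 ± 0.32; edgeR, adjusted p = 0.00795). With the epithelium-rich libraries left out, which leaves GC_CT with 1 library assumed to vary like the other groups, the value was 1.94 and the call was lost (edgeR, adjusted p = 0.183). In goWAT the 13 °C libraries had 250.1, 338, 264, 176 and 372 CPM in GC_CT, against 269, 189, 176, 182 and 158 CPM in Ctrl_CT, with overlap and no call (0.52 ± 0.24; edgeR, adjusted p = 0.292). In goWAT the GC effect at 13 °C less the one at 22 °C was -1.38 ± 0.35, which did not pass with edgeR (adjusted p = 0.0888) and passed with DESeq2.

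Brown fat held little Lpgat1, with 21.8, 25.5, 22.0, 42.6 and 25.7 CPM in GC_RT, against 44.0, 55.4 and 19.6 CPM in Ctrl_RT. The groups overlapped and the sign was negative (-0.53 ± 0.35; edgeR, adjusted p = 0.634). At 13 °C iBAT had 47.2, 83.0, 37.8, 28.1 and 30.0 CPM in GC_CT, against 53.3, 35.5, 43.0, 44.9 and 29.1 CPM in Ctrl_CT (0.14 ± 0.31; edgeR, adjusted p = 0.932). The test of whether the GC effect at 22 °C differs between the 3 depots passed for Lpgat1 (F-test in edgeR, adjusted p = 0.00549), the 1 member of 10, beside 0.742% of all genes. It passed in all 26 fits that left out a single library of these groups. Without the macrophage-rich libraries of iBAT and scWAT it did not (adjusted p = 0.0642), when 11 genes in all passed. At 13 °C edgeR called 0 members in this test, with 3 at an unadjusted p under 0.05 (Lpgat1 adjusted p = 0.178), beside 0.234% of all genes.

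Agpat2, the main enzyme of the step that makes phosphatidate in fat cells, fell in subcutaneous fat at 22 °C. It had 2129, 574, 340.2, 732 and 261 CPM in scWAT GC_RT, against 1159.7, 2623, 3604 and 4451 CPM in Ctrl_RT. GC_RT replicate 1 lay inside the placebo range and the other 4 below it (-1.87 ± 0.49; edgeR, adjusted p = 0.0237). The call was lost without Ctrl_RT replicate 2, 3 or 4 or GC_RT replicate 3 (values -2.63 to -1.61 over single leave-outs, adjusted p up to 0.0989 with edgeR), without both macrophage-rich libraries (-1.53; edgeR, adjusted p = 0.135), without the epithelium-rich ones (-1.90; edgeR, adjusted p = 0.0718) and in a fit of the compared groups alone. The epithelium-rich libraries are all from 13 °C and outside this comparison, so leaving them out is no check on epithelium in it. At 13 °C scWAT had 1756, 1691, 1431 and 1815 CPM in GC_CT, against 4625, 5068, 2653, 3439 and 1589 CPM in Ctrl_CT, and the change was not called (-1.05 ± 0.50; edgeR, adjusted p = 0.318).

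Agpat2 (chromosome 2, bases 26593057 to 26604417, minus strand) overlaps the endothelial gene Egfl7 on the other strand, and reads of the pair cannot be told apart where they overlap, since the libraries mark no strand. Egfl7 had 119.8, 73.1, 52.1, 83.0 and 107 CPM in scWAT GC_RT, against 67.3, 62.4, 81.5 and 85.4 CPM in Ctrl_RT, below Agpat2 in each of these libraries. How reads within the overlap were counted is not given, so these values do not bound them.

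In the other depots Agpat2 varied widely between libraries. In goWAT at 22 °C it had 3595, 2496, 2353, 858 and 391 CPM in GC_RT, against 2189, 1683, 2147 and 1711 CPM in Ctrl_RT, so that GC libraries lay on both sides of the placebo range (0.0045 ± 0.55; edgeR, adjusted p = 0.998). In iBAT at 22 °C it had 2723, 2823, 3444, 1800.0 and 1346 CPM in GC_RT, against 1569, 2303 and 5976 CPM in Ctrl_RT (-0.44 ± 0.39; edgeR, adjusted p = 0.752). In iBAT at 13 °C it had 1361, 1529.9, 3289.5, 3035 and 3079 CPM in GC_CT, against 1532, 1396, 1544, 1537 and 1270.3 CPM in Ctrl_CT. There 3 GC libraries were well above and 2 within the placebo range (0.76 ± 0.35; edgeR, adjusted p = 0.454). Agpat3 (chromosome 10, bases 78269178 to 78352489, minus strand) had GC effects from -0.43 (scWAT at 22 °C) to 0.21 (goWAT at 13 °C) over the 6 comparisons, with 0 called by edgeR, DESeq2 or limma, and it had the lowest median coefficient of variation of the members. At an unadjusted p under 0.05 there was 1 of the 6 for Agpat3.

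Lpin1 (chromosome 12, bases 16535669 to 16610966, minus strand), the phosphatidate phosphatase that is the main lipin of fat cells and also acts with transcription factors in the nucleus, fell with corticosterone in scWAT at 13 °C. It had 459.6, 278, 192 and 167 CPM in GC_CT, against 762, 556, 563, 776 and 736 CPM in Ctrl_CT, all GC libraries below all placebo libraries (-1.31 ± 0.31; edgeR, adjusted p = 0.0237). At 22 °C scWAT had 315, 149, 232, 427 and 351 CPM in GC_RT, against 471, 406, 329 and 339 CPM in Ctrl_RT, with overlap (-0.39 ± 0.30; edgeR, adjusted p = 0.484). The difference between these GC effects, -0.92 ± 0.43, did not pass (edgeR, adjusted p = 0.496), so the temperatures are not shown to differ. GC_CT replicates 3, 4 and 5, the epithelium-rich libraries, held the lowest Lpin1 values. The call was lost without any 1 of them or without Ctrl_CT replicate 4 (values -1.68 to -1.12 over single leave-outs, adjusted p up to 0.102 with edgeR), and without the epithelium-rich set, which leaves GC_CT with 1 library, the value was -0.61 (edgeR, adjusted p = 1).

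In goWAT at 13 °C Lpin1 had 500.1, 391, 238, 182 and 160.4 CPM in GC_CT, against 537, 519, 553, 493 and 872 CPM in Ctrl_CT. GC_CT replicate 1, rich in brown fat transcripts, reached the placebo range and the other 4 lay below it (-1.02 ± 0.29; edgeR, adjusted p = 0.0817). Leaving out the brown-fat-rich libraries removes GC_CT replicate 1, and the change was then -1.30 (edgeR, adjusted p = 0.0193). At 22 °C goWAT had 445, 271, 364, 355 and 286 CPM in GC_RT, against 286, 296, 529.9 and 276 CPM in Ctrl_RT (-0.012 ± 0.31; edgeR, adjusted p = 0.989). In iBAT it had 437, 653, 167, 277 and 242 CPM in GC_RT, against 297, 347 and 205 CPM in Ctrl_RT. There GC and Ctrl overlapped at both temperatures (0.33 ± 0.44 at 22 °C and -0.22 ± 0.38 at 13 °C; edgeR, adjusted p = 0.853 and 0.90). The start-site window of Lpin1 was the one window, among those of the 7 members that had any, that held AGAACA. That sequence was in 19.0% of all windows, and a link to the GC effect was not tested.

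Diacylglycerol acyltransferases catalyse the last step, and the pair in these data are proteins of unrelated families. Dgat1 (chromosome 15, bases 76502015 to 76511953, minus strand) fell in both white depots at 22 °C. In goWAT it had 182, 205, 251, 142 and 162 CPM in GC_RT, against 399, 362, 341 and 389 CPM in Ctrl_RT, with a wide gap between the groups (-0.98 ± 0.21; edgeR, adjusted p = 0.00694). In scWAT it had 244, 184, 148, 245 and 208 CPM in GC_RT, against 293, 404, 419.5 and 463 CPM in Ctrl_RT, again apart (-0.94 ± 0.20; edgeR, adjusted p = 0.00558). Without the macrophage-rich libraries the scWAT value was -0.77 and missed the threshold (edgeR, adjusted p = 0.0591).

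In iBAT at 22 °C Dgat1 had 138, 181, 187, 183 and 145 CPM in GC_RT, against 232, 297 and 222 CPM in Ctrl_RT. The GC libraries all lay below the placebo libraries, but the test did not pass (-0.59 ± 0.21; edgeR, adjusted p = 0.249). In scWAT at 13 °C it had 222, 285, 289 and 278 CPM in GC_CT, against 396, 446, 416, 400.0 and 419.7 CPM in Ctrl_CT, also apart (-0.63 ± 0.20; edgeR, adjusted p = 0.101; called by DESeq2 and limma). In goWAT at 13 °C the change was -0.48 ± 0.20 and in iBAT -0.15 ± 0.18 (edgeR, adjusted p = 0.235 and 0.851). The GC effects at 22 °C of -0.59, -0.98 and -0.94 in iBAT, goWAT and scWAT were not shown to differ between depots (F-test in edgeR, adjusted p = 0.554).

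Dgat2 (chromosome 7, bases 99153658 to 99182719, minus strand) was not called in any GC comparison by edgeR, DESeq2 or limma, and 0 of its 6 edgeR tests had an unadjusted p under 0.05. In goWAT it had 9800.4, 7554, 9426, 2661 and 2591 CPM in GC_RT, against 5788, 4046, 5038 and 5424 CPM in Ctrl_RT, with 3 GC libraries above and 2 below the placebo range (0.34 ± 0.41; edgeR, adjusted p = 0.672). In scWAT it had 7074, 1667, 1356, 2486 and 1319 CPM in GC_RT, against 2243, 3255, 4433 and 4359 CPM in Ctrl_RT, where GC_RT replicate 1 stood above all others (-0.36 ± 0.47; edgeR, adjusted p = 0.701). In iBAT it had 2504, 3685, 2185, 1657 and 1802 CPM in GC_RT, against 2263, 3006 and 3504 CPM in Ctrl_RT (-0.31 ± 0.28; edgeR, adjusted p = 0.757). The ratio of Dgat2 to Dgat1 per kilobase had a geometric mean of 29.2 in goWAT GC_RT and 13.4 in Ctrl_RT, and no GC library overlapped the placebo range (log2 difference 1.12, exact permutation p = 0.0397, adjusted over 24 comparisons 0.190). At 13 °C in goWAT the ratio was 21.4 in GC_CT and 10.9 in Ctrl_CT (exact permutation p = 0.0556, adjusted 0.222).

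Mogat1 (chromosome 1, bases 78510991 to 78538173, plus strand), which acylates monoacylglycerol, was lower with corticosterone in goWAT at 22 °C. It had 31.3, 37.5, 57.6, 46.5 and 37.1 CPM in GC_RT, against 61.3, 98.1, 64.3 and 62.9 CPM in Ctrl_RT, the groups close but apart (-0.77 ± 0.20; edgeR, adjusted p = 0.0233). The call was lost without Ctrl_RT replicate 2, the highest library (adjusted p = 0.105 with edgeR), and without the pair of lowest totals or the epididymis-rich set (adjusted p = 0.0628 and 0.0625 with edgeR), and in a fit of the compared groups alone. In scWAT it had 59.3, 30.6, 12.9, 47.7 and 33.1 CPM in GC_RT, against 67.4, 67.6, 71.8 and 58.0 CPM in Ctrl_RT, with 1 GC library in the placebo range (-0.85 ± 0.28; edgeR, adjusted p = 0.0708).

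In iBAT at 22 °C Mogat1 had 16.6, 10.3, 10.6, 18.2 and 16.6 CPM in GC_RT, against 48.7, 63.4 and 15 CPM in Ctrl_RT. Ctrl_RT replicate 3, a muscle-rich library, lay among the GC values and the other 2 far above them (-1.55 ± 0.42; edgeR, adjusted p = 0.10). Leaving out the muscle-rich libraries removes this placebo library and keeps only the other 2 of Ctrl_RT. The change was then -1.94 (edgeR, adjusted p = 0.0362), and the part of muscle RNA in it was not tested. At 13 °C the changes were -0.12, -0.33 and -0.27 in iBAT, goWAT and scWAT, with 0 called. Mogat1 overlaps the gene BC035947 on the other strand, which the counts cannot separate.

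**Figure D4:**
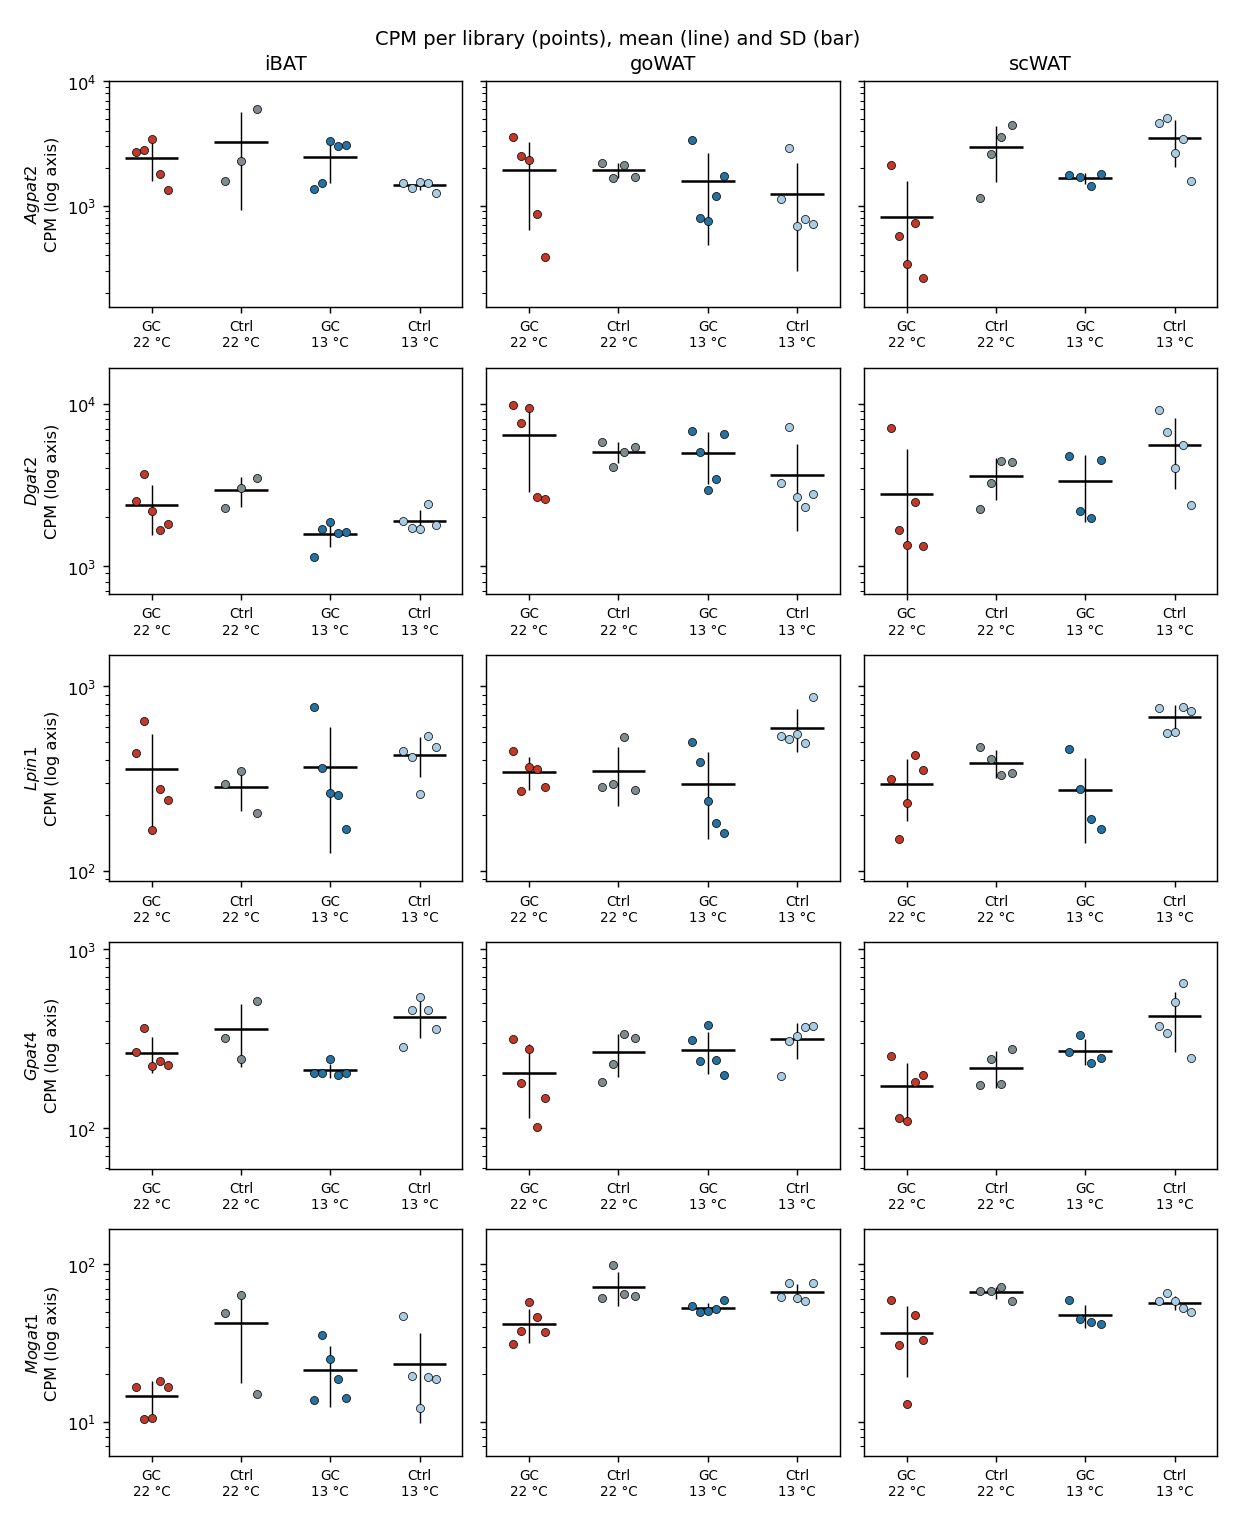
CPM per library on log axes for Agpat2, Dgat2, Lpin1, Gpat4 and Mogat1 in iBAT, goWAT and scWAT, with GC and Ctrl side by side at 22 °C and at 13 °C, a line at each group mean and a bar of 1 SD. Agpat2 and Dgat2 spread widely within groups, Lpin1 is lower in GC than in Ctrl in scWAT at 13 °C, and Gpat4 is lower in GC in iBAT at 13 °C.

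Cold alone gave no called member. In placebo mice, 13 °C against 22 °C gave 0 called members by edgeR in iBAT, goWAT and scWAT, beside 0.0175%, 0.312% and 0% of all genes. At an unadjusted p under 0.05 there were 3, 2 and 3, DESeq2 called 0 in each depot, and limma called 2, 0 and 1. In scWAT, Lpin1 had 762, 556, 563, 776 and 736 CPM in Ctrl_CT, against 471, 406, 329 and 339 CPM in Ctrl_RT, all cold libraries above the others (0.81 ± 0.30; edgeR, adjusted p = 0.310). Gpat3 had 110.0, 116, 114, 129.5 and 85.3 CPM in scWAT Ctrl_CT, against 189, 137, 214 and 187 CPM in Ctrl_RT, all cold libraries below (-0.71 ± 0.27; edgeR, adjusted p = 0.307). Those were the 2 members of scWAT without overlap, beside 4.92% of all genes. In iBAT it was Agpat2, with 1532, 1396, 1544, 1537 and 1270.3 CPM in Ctrl_CT, against 1569, 2303 and 5976 CPM in Ctrl_RT (-1.17 ± 0.39; edgeR, adjusted p = 0.369), beside 6.96% of all genes, and in goWAT 0 members, beside 3.55%. Gpat4 in scWAT overlapped, with 247 to 646 CPM in Ctrl_CT and 174 to 277 CPM in Ctrl_RT. Its change was 0.95 ± 0.29 (edgeR, adjusted p = 0.265), larger than those of Lpin1 and Gpat3 there. Gpat3 in iBAT also overlapped (-1.52 ± 0.56, edgeR, adjusted p = 0.419).

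Under corticosterone, 13 °C against 22 °C gave 1 called member, Gpam in scWAT, beside 8.18% of all genes there. It had 286, 233, 193 and 117 CPM in GC_CT, against 132, 78.6, 73.0, 143 and 148 CPM in GC_RT, and the groups overlapped (0.85 ± 0.26; edgeR, adjusted p = 0.0480). Of the macrophage markers, 13 of 14 fell in the same comparison, and 8 of 8 epithelial markers rose. Without the macrophage-rich libraries the value was 0.58 (edgeR, adjusted p = 0.278), and 2 genes in all were then called, against 1555 with them. The call was also lost without GC_RT replicate 2 or 3 or GC_CT replicate 1, 3 or 4, with values from 0.66 to 1.05 (edgeR, adjusted p up to 0.156). In iBAT and goWAT edgeR called 0 members (beside 0.00583% and 0.0149% of all genes), with 3 in each at an unadjusted p under 0.05, 0 and 1 by DESeq2, and 0 in each by limma. Groups did not overlap for 0 members in goWAT and scWAT, beside 1.45% and 8.67% of all genes, and for 2 in iBAT, beside 2.42%. Gpat3 had 6.34, 14.9, 13.0, 9.24 and 7.51 CPM in GC_CT, against 17.5, 29.7, 18.9, 28.2 and 20.7 CPM in GC_RT (-1.17 ± 0.51; edgeR, adjusted p = 0.275). Agpat3 had 367, 296, 317, 319 and 285 CPM in GC_CT, against 258, 256, 227, 212 and 255 CPM in GC_RT (0.39 ± 0.19; edgeR, adjusted p = 0.337). In goWAT, Lpgat1 was lower on average at 13 °C (-0.80 ± 0.24, edgeR, adjusted p = 0.160). Gpam (0.56 ± 0.26) and Gpat3 (0.63 ± 0.27) were higher there (edgeR, adjusted p = 0.332 and 0.298).

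Whether temperature changes the corticosterone effect was tested by subtracting the GC effect at 22 °C from that at 13 °C. EdgeR called 0 members in iBAT, goWAT and scWAT, beside 0%, 0.461% and 0% of all genes. At an unadjusted p under 0.05 there were 2, 3 and 3, DESeq2 called 0, 1 (Lpgat1) and 0, and limma 0 in each. The members' median differences were 0.29, 0.32 and 0.27, beside 0.0024, -0.036 and -0.036 over all genes. For Gpam the differences were 0.75 ± 0.38 in goWAT and 0.94 ± 0.37 in scWAT (edgeR, adjusted p = 0.397 and 0.416), so the smaller falls at 13 °C are not shown to differ from those at 22 °C. In goWAT they were 1.12 ± 0.40 for Gpat3 and -1.38 ± 0.35 for Lpgat1 (edgeR, adjusted p = 0.227 and 0.0888). In iBAT they were 1.43 ± 0.57 for Mogat1 and 1.19 ± 0.52 for Agpat2 (edgeR, adjusted p = 0.765 for each). Gpat4 had -0.55 ± 0.36 in iBAT (edgeR, adjusted p = 0.804).

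The wider pathway was followed through 46 further genes: 14 other enzymes of the pathway, 9 of acyl-CoA supply, 13 at branch points to phospholipids and 10 regulators. In goWAT at 22 °C, 1 rose and 4 fell of 45 tested, beside calls for 5.98% of all genes. Agpat5, a mitochondrial member of the AGPAT family, rose (1.2 ± 0.24; edgeR, adjusted p = 0.00360). Acsl1, which activates fatty acids for triglyceride synthesis and oxidation, fell (-1.62 ± 0.33; adjusted p = 0.00416), as did the fatty acid transporter Slc27a1 (-1.95 ± 0.45; adjusted p = 0.0113) and the lipogenic transcription factor Srebf1 (-1.45 ± 0.30; adjusted p = 0.00495). The diacylglycerol kinase Dgkd fell by 1.02 ± 0.24 on the log2 scale (edgeR, adjusted p = 0.0136).

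In scWAT at 22 °C, 1 rose and 9 fell of 45, beside 6.93% of all genes. Insig1, which retains the SREBP complex in the endoplasmic reticulum and is itself an SREBP target, fell (-2.58 ± 0.37; edgeR, adjusted p = 0.000222). Also lower were Slc27a1 (-1.76 ± 0.32), the acyltransferase Agpat1 (-1.36 ± 0.30), Acsl1 (-1.32 ± 0.29), the cholinephosphotransferase Chpt1 (-1.34 ± 0.31) and Srebf1 (-1.08 ± 0.28), at edgeR adjusted p from 0.00180 to 0.0219. At 13 °C in scWAT, 1 rose and 2 fell, beside 2.59% of all genes: the ethanolaminephosphotransferase Selenoi rose (1.09 ± 0.23; edgeR, adjusted p = 0.0127), and the fatty acid oxidation regulator Ppara (-2.20 ± 0.46; adjusted p = 0.00939) and Insig1 (-1.67 ± 0.38; adjusted p = 0.0182) fell. In iBAT at 13 °C, beside 0.728% of all genes, 0 rose and 1, the diacylglycerol kinase Dgka, fell (-1.36 ± 0.31; edgeR, adjusted p = 0.0436). Medians of the tested genes of these lists were -0.13 in goWAT and -0.25 in scWAT at 22 °C, beside 0.053 and 0.062 over all genes. EdgeR called 0 of these genes in iBAT at 22 °C (14 at an unadjusted p under 0.05) and 0 in goWAT at 13 °C (8 at an unadjusted p under 0.05).

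In scWAT under corticosterone, 13 °C against 22 °C, 8 rose and 1 fell of 45, beside 8.18% of all genes. Among them were Slc27a1 (1.79 ± 0.32), Agpat1 (1.53 ± 0.30), Insig1 (1.66 ± 0.36), Acsl1 (1.16 ± 0.29), Pcyt2 of phosphatidylethanolamine synthesis (1.37 ± 0.34) and the diacylglycerol kinase Dgkq (3.55 ± 0.89), each higher in GC_CT, at edgeR adjusted p from 0.0129 to 0.0229. The Dgkq change was one between very low levels, with means of 2.59 CPM in GC_CT and 0.211 CPM in GC_RT. In scWAT under corticosterone, almost all calls of 13 °C against 22 °C were lost without the macrophage-rich libraries. Between depots, iBAT was above goWAT for glycerol kinase Gk (4.26 ± 0.60), which lets brown fat cells reuse glycerol, for Acsl5 (2.80 ± 0.41) for the oxidative regulators Ppargc1a (3.61 ± 0.57) and Ppara (3.59 ± 0.62) and for the transcription factor Cebpb (3.65 ± 0.66). It was below goWAT for Gpd1l, related to glycerol-3-phosphate dehydrogenase (-1.21 ± 0.24; edgeR, adjusted p at most 0.000325 for these 6). In all, 7 of 46 genes were higher and 5 lower there, beside 14.7% of all genes. Of iBAT against scWAT, beside 2.81%, 4 were higher and 0 lower: Acsl5 (2.81 ± 0.41), Ppara (3.25 ± 0.62), Gk (2.92 ± 0.57) and Ppargc1a (2.13 ± 0.55). Of goWAT against scWAT, beside 4.33%, 3 were higher (Dgka, Dgkq and Gpd1l) and 2 lower (Cebpa and Cebpb). The GC effect at 22 °C differed between depots for 1 of these genes, Gpd1l (F-test in edgeR, adjusted p = 0.0316).

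Across the 12 group means of log2 CPM, the protein-coding genes whose pattern was most like that of a member, out of 7999, were ranked by Pearson's r. These values describe 12 points that share depots and libraries, and carry no test. The closest were Pnpla8 (r = 0.912) for Gpam, Wls (r = 0.978) for Gpat3, Adcy3 (r = 0.938) for Gpat4, Rwdd1 (r = 0.956) for Agpat2 and Smim20 (r = 0.992) for Agpat3. For Lpgat1 they were Lyve1 (r = 0.978) and Mycbp2 (r = 0.978), for Lpin1 Hlf (r = 0.860), for Dgat1 Gprc5b (r = 0.948) and Acsl1 (r = 0.936), for Dgat2 Ptp4a3 (r = 0.868) and for Mogat1 Pard6g (r = 0.968). Dgat2 and Lpin1 had the weakest best matches.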

How the data were processed

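Laser-captured areas of cryosectioned fat gave about 2 ng of RNA per sample, made into SMART-Seq2 libraries, which mark no strand, per the labels' protocols. The authors deposited raw counts, 1 table per depot with 31933 genes. Per the submitters' processing notes, the authors used FastQC, GSNAP, mm10 and featureCounts (1.6.3). How multi-mapping reads, strand and annotation were set is not given in the sources used here. Groups come from the labels.

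Fits were made per depot in edgeR 4.0.16 (R 4.3.3): filterByExpr (minimum 10 counts), TMM, a robust quasi-likelihood test, 1 mean per group. This left 17163, 20175 and 19003 genes in iBAT, goWAT and scWAT. Depot differences came from 1 fit of all 55 libraries (22245 genes). Calls are at a Benjamini-Hochberg adjusted p under 0.05 over all genes tested. CPM use TMM-scaled totals within a depot. RPKM use GENCODE M21 exon lengths and the scaling over all libraries. SE came from the F statistic. DESeq2 1.42.0 and limma 3.58.1 were alternatives. Ratios within a library used a pseudocount of 0.5 counts and exact permutation tests. Code was tested on simulated data.

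All 10 members were tested in every comparison, and values of members not called are printed only in part. Other pathway genes are named when called, up to 6 per comparison by adjusted p, and likeness of pattern takes the closest protein-coding genes whose average log2 CPM is 3 or more. Members, lists and the sets of libraries left out were chosen with earlier results of these data known. P-values measure the spread between libraries, which may be technical. Near-identical or overlapping genes cannot be told apart by these counts. Besides the overlaps given above, Gm20532 overlaps Agpat2, and 4930458D05Rik and Gm42987 overlap Gpat3. Gm22446 and Gm26203 overlap Lpgat1, and Gm47992, n-R5s77, Mir7659 and Gm40709 overlap Agpat3.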

Additional observations from a re-analysis of the deposited data

Results flagged for a closer look

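Single libraries stood far from the others of their group, by the gap to the nearest library as a share of the group's range, in 15 of 110 sets of 4 or 5 libraries tested. A chance rate of about 1 in 20 holds for independent values with a normal spread. The CPM were not log-transformed and the genes share libraries, so an excess over chance is not shown. Agpat2 and Dgat2 were high together in the same libraries: in scWAT GC_RT replicate 1 Agpat2 had 2129 CPM (others 261 to 732) and Dgat2 7074 CPM (others 1319 to 2486), and in goWAT Ctrl_CT replicate 2 Agpat2 had 2916 CPM (others 682 to 1134) and Dgat2 7147 CPM (others 2322 to 3251).

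Among the other members, Gpam had 385 CPM (others 159.7 to 215) in goWAT GC_CT replicate 1 and 407 CPM (others 114 to 153) in iBAT GC_RT replicate 2. Gpat3 had 262 CPM (others 130.2 to 155) in goWAT GC_CT replicate 4, and Gpat4 244 CPM (others 198 to 205) in iBAT GC_CT replicate 3. Lpgat1 had 42.6 CPM (others 21.8 to 25.7) in iBAT GC_RT replicate 4 and 269 CPM (others 158 to 189) in goWAT Ctrl_CT replicate 1. Lpin1 had 872 CPM (others 493 to 553) in goWAT Ctrl_CT replicate 5 and 530 CPM (others 276 to 296) in goWAT Ctrl_RT replicate 3. Mogat1 had 46.6 CPM (others 12.2 to 19.4) in iBAT Ctrl_CT replicate 1 and 98.1 CPM (others 61.3 to 64.3) in goWAT Ctrl_RT replicate 2. Dgat1 was low in scWAT GC_CT replicate 1, at 222 CPM (others 278 to 289).

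The GC effect on Lpgat1 at 22 °C differed between the depots (F-test in edgeR, adjusted p = 0.00549), with log2 fold changes of -0.53 ± 0.35 in iBAT, 1.91 ± 0.27 in goWAT and 1.75 ± 0.33 in scWAT. It was higher in 5 of 5 GC libraries than in any placebo library in goWAT and likewise in scWAT.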

How the results depend on the processing

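Of values called by edgeR, 0 changed sign under any alternative. Among values not called, 53 of 1620 changed sign under other settings and 70 of 2420 without a single replicate. RLE and upper-quartile factors moved the median of all genes by at most 0.055 and 0.089.

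Counts of called members that moved by over 1.5 times are as follows. The value under the alternative comes first and that of edgeR after it. DESeq2 called 1 against 0 in each of iBAT GC_RT against Ctrl_RT, goWAT GC_CT against Ctrl_CT, goWAT GC_CT against GC_RT and the goWAT difference of GC effects. Limma called 3 against 0 in iBAT GC_RT against Ctrl_RT, 2 against 0 in iBAT Ctrl_CT against Ctrl_RT and in goWAT GC_CT against Ctrl_CT, 1 against 0 in scWAT Ctrl_CT against Ctrl_RT and 4 against 1 in scWAT GC_CT against GC_RT. With no filter on low counts there were 0 against 1 in iBAT GC_CT against Ctrl_CT and in scWAT GC_CT against GC_RT, and 1 against 3 in iBAT against scWAT. Without macrophage-rich libraries there were 0 against 1 in iBAT GC_CT against Ctrl_CT, scWAT GC_CT against GC_RT and, by a check chosen after seeing the data, the test between depots at 22 °C, and 2 against 4 in scWAT GC_RT against Ctrl_RT. The macrophage-rich iBAT libraries are outside iBAT GC_CT against Ctrl_CT. Without muscle-rich libraries it was 1 against 0 in iBAT GC_RT and 0 against 1 in iBAT GC_CT against Ctrl. Without epithelium-rich libraries it was 0 against 2 in scWAT GC_CT against Ctrl_CT and 0 against 1 in scWAT GC_CT against GC_RT, and that last count was also 0 with a fit of the compared groups alone. Without brown-fat-rich libraries it was 2 against 0 in goWAT GC_CT against Ctrl_CT. Smaller moves were 5 (DESeq2), 6 (limma), 3 (compared groups alone) and 3 (without epithelium-rich libraries) against 4 in scWAT GC_RT against Ctrl_RT, 3 (DESeq2 and limma) against 2 in scWAT GC_CT against Ctrl_CT, 4 (compared groups alone, without epididymis-rich libraries or without the lowest totals) against 5 in goWAT GC_RT against Ctrl_RT, and 4 (RLE factors, or without brown-fat-rich libraries and lowest totals) against 3 in iBAT against goWAT. No epithelium-rich library is in scWAT GC_RT against Ctrl_RT. The replicate block gave 0 against 1 in iBAT GC_CT against Ctrl_CT and in scWAT GC_CT against GC_RT. It gave 2 against 3 in iBAT against scWAT and 4 against 3 in iBAT against goWAT, and the same counts elsewhere. The labels state no pairing by number, so whether libraries should be paired this way cannot be told. Deviations from group means of same-numbered libraries correlated above 0.1 in 7 of 24 pairs in iBAT, 6 of 27 in goWAT and 6 of 24 in scWAT. With different numbers it was 25 of 96, 28 of 108 and 28 of 97. Across depots it was 23 of 53 with the same number and 46 of 202 with different numbers (median r 0.073 and -0.029). The fit of all depots treats libraries as independent, and its p-values would be affected if same-numbered libraries share an animal. Causes were not tested.

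Leaving out single replicates, called members ran from 4 to 5 (goWAT) and 3 to 6 (scWAT) for GC against Ctrl at 22 °C, and from 0 to 1 in iBAT. At 13 °C they ran from 0 to 1 (iBAT), 0 to 2 (goWAT) and 1 to 2 (scWAT). GC_CT against GC_RT gave 0 to 4 in scWAT and 0 to 1 in goWAT, the goWAT difference of GC effects 0 to 1, iBAT against goWAT 2 to 4 and iBAT against scWAT 0 to 3. The test between depots at 22 °C kept 1, and the others, ratios included, kept 0. A ratio pseudocount of 2 counts also gave 0.

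Over all genes, calls for GC against Ctrl were, with the range over the other settings, 114 (26 to 954), 1206 (655 to 2204) and 1317 (636 to 2256) at 22 °C in iBAT, goWAT and scWAT, and 125 (54 to 385), 292 (91 to 2214) and 493 (36 to 1523) at 13 °C. In these 6 comparisons the fewest came from leaving out libraries or groups and the most from DESeq2 or limma. For 13 °C against 22 °C they were 3 (0 to 1031), 63 (12 to 196) and 0 (0 to 773) in Ctrl and 1 (1 to 388), 3 (0 to 418) and 1555 (2 to 2844) in GC. For the difference of GC effects they were 0 (0 to 9), 93 (13 to 413) and 0 (0 to 154), and for the test between depots 165 (11 to 189) at 22 °C and 52 (41 to 86) at 13 °C. Group sizes of 3 to 5 limit what can be called, so a missing call does not show that a member stayed the same.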
